A study of Glycine max with 6 samples.

Results

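The genes described here are the soybean (Glycine max) genes of mitochondrial oxidative phosphorylation, measured in leaf RNA. They are the genes that the deposited table places in the KEGG pathway oxidative phosphorylation. Genes also placed in the KEGG pathways photosynthesis or citrate cycle were dropped, as were genes with the GO terms of rotary proton pumps, of pumps driven by pyrophosphate or of P-type proton pumps. A sum of at least 60 counts over the 6 libraries was required. Of 147 genes in the pathway, 72 were dropped by annotation and 6 by the count limit, which left 69 of the 45967 genes in the table. By their terms, 27 belong to complex I, 12 to complex III, 7 to complex IV, 10 to ATP synthase and 3 are soluble inorganic pyrophosphatases. The other 10 are acyl carrier, heme and copper genes. Complex II is not among them, because its genes are also placed in the citrate cycle.

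Oxidative phosphorylation is the last stage of respiration. Complex I takes electrons from NADH and passes them to ubiquinone, complex III passes them on to cytochrome c, and complex IV gives them to oxygen. These steps pump protons across the inner mitochondrial membrane, and ATP synthase uses their return to make ATP. Plants also have an alternative oxidase, which hands electrons from ubiquinol straight to oxygen without pumping protons. In leaves, respiration runs beside photosynthesis and takes up reducing power from photorespiration.

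All plants were soybean HN95, labelled wild type, in pots with 20 kg of a peat and vermiculite mix that received 3 L of a saline-alkaline solution. Its salts were NaCl and Na2CO3 at 40 mM each and NaHCO3 and Na2SO4 at 320 mM each. The control group (3 libraries) had this stress alone, and the sources do not say whether a mock spray was used. The MSN group (3 libraries) had the same stress and a leaf spray of mesoporous silica nanoparticles (MSN, particles of porous silica) at 20 mg/L. Functional leaves were sampled 7 days after that spray. The treatment tags of the MSN libraries read 20, 21 and 22 mg/L although the protocol names only 20 mg/L, and they were treated as 1 group, as in the titles. The titles call the replicates biological, but separate plants or pots are not stated, so p-values measure the spread between these libraries.

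Libraries held 63981150 to 67923813 counts. Counts of 4 made up 17.7 to 19% of all counts from 1 to 12, against 8.27 to 9.42% for counts of 3, so low counts do not spread as single fragments would, and the totals do not give the precision of low genes. The share of ribosomal RNA genes was 0.0934 to 0.126%, except for 0.223% in control replicate 2. Leaf mesophyll markers, genes of the photosystems and of light harvesting, had 113 of 134 tested genes higher in MSN and 4 lower, and their summed level was 17495 to 18327 CPM (counts scaled to a common library size) in control and 26422 to 27540 CPM in MSN. Phloem and vein genes had 21 of 41 higher and 3 lower (285 to 290 CPM summed in control, 342 to 366 CPM in MSN), and those of stomata and guard cells 4 of 16 higher and 1 lower (69.7 to 78.1 and 63.7 to 66.4 CPM). Trichome and epidermis genes had 5 of 11 higher and 1 lower (85.8 to 89.3 and 101 to 111 CPM), and genes of dividing cells 51 of 137 higher and 20 lower (2908 to 3017 and 2994 to 3048 CPM). Of all tested genes 29.6% were higher and 29.7% lower. The share higher was 84.3% for mesophyll, 51.2% for phloem and vein and 45.5% for trichome and epidermis. It was 37.2% for dividing cells and, below that of all tested genes, 25% for stomata and guard cells. No gene of these lists (0) was at 0 in all libraries, but this held for all 45967 genes in the table and says nothing particular about these lists. The part of these shifts in the results below was not tested, and in bulk leaf RNA fewer cells of a type and less RNA per cell cannot be told apart.

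Among the 69 genes most changes were small, and more genes were lower than higher in sprayed leaves. Of the 69 genes, 23 were lower in MSN, 9 were higher and 37 did not pass (edgeR quasi-likelihood test, Benjamini-Hochberg adjusted p threshold 0.05 over 39203 genes tested). Among all tested genes the same test called 59.3%, with 29.6% higher and 29.7% lower, and among the 69 genes it called 46.4%, with 13% higher and 33.3% lower. All 69 passed the filter on low counts. In limma on quantile-normalised values, which changes the scaling and the test together, 14 were higher and 17 lower. Other scalings within edgeR gave 8 higher and 24 lower (DESeq2-type size factors) and 9 higher and 24 lower (library totals). The median log2 fold change (MSN over control) was -0.07, beside 0.01 for all tested genes.

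The changes were small beside those of the whole table, a difference that was not tested. Taken without its sign, the log2 fold change had a median of 0.14 for the 69 genes and 0.39 for all tested genes, and 45 of the 69 (65.2%) moved by less than 0.2 beside 28.5% of all tested genes. A change that passed and reached 0.5 on the log2 scale was seen in 5 of the 69 genes and in 33.7% of all tested genes. Of these 5, 4 are pyrophosphatase or acyl carrier genes and 1 belongs to complex IV. The 69 genes are also more abundant than most, with a median of 23.7 FPKM (a level per gene length and library size) beside 4.54 FPKM over tested genes, and 64 lay above that median. Among tested genes of at least 10 CPM, 71.9% were called, with 31.4% higher and 40.5% lower, and the median size was 0.29. Of the 64 pathway genes at that level 30 were called (46.9%), 7 higher and 23 lower, with a median size of 0.14. The share lower among the 69 genes, 33.3%, thus lies above that of all tested genes and below that of genes of at least 10 CPM. Replicates lay close together, with a median coefficient of variation of 4.91% in control and 4.51% in MSN.

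**Figure D1:**
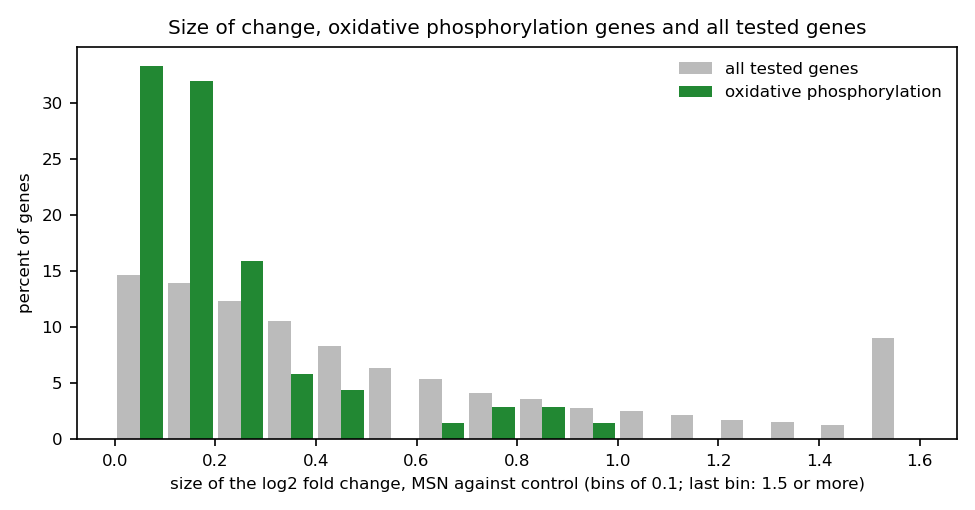
Size of the log2 fold change without its sign (x axis, bins of 0.1) against percent of genes (y axis), for the 69 oxidative phosphorylation genes in green and all tested genes in grey. Among the pathway genes 65.2% lie below 0.2, and none lies in the last bin, which holds changes of 1.5 or more.

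The 3 MSN values and the 3 control values did not overlap in 38 of the 69 genes (55.1%), against 65.0% of all tested genes. In 26 of these genes all MSN values were below all control values, which held for 32.2% of all tested genes, and in 12 all were above, which held for 32.8%. Summed over the 69 genes, control libraries held 2629, 2542 and 2635 CPM and MSN libraries 2441, 2476 and 2521 CPM. The MSN sums were all lower, and their mean changed by -4.72% against the control mean. Complex III had the largest fall among the 6 groups, from 483 ± 13.5 to 428 ± 8.58 CPM (SD, n = 3), or -11.40%. Complex IV went from 196 ± 3.27 to 177 ± 4.14 CPM and complex I from 1037 ± 17 to 988 ± 12.9 CPM, both without overlap. ATP synthase sums overlapped, at 601 ± 15.4 and 584 ± 12.7 CPM.

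**Figure D2:**
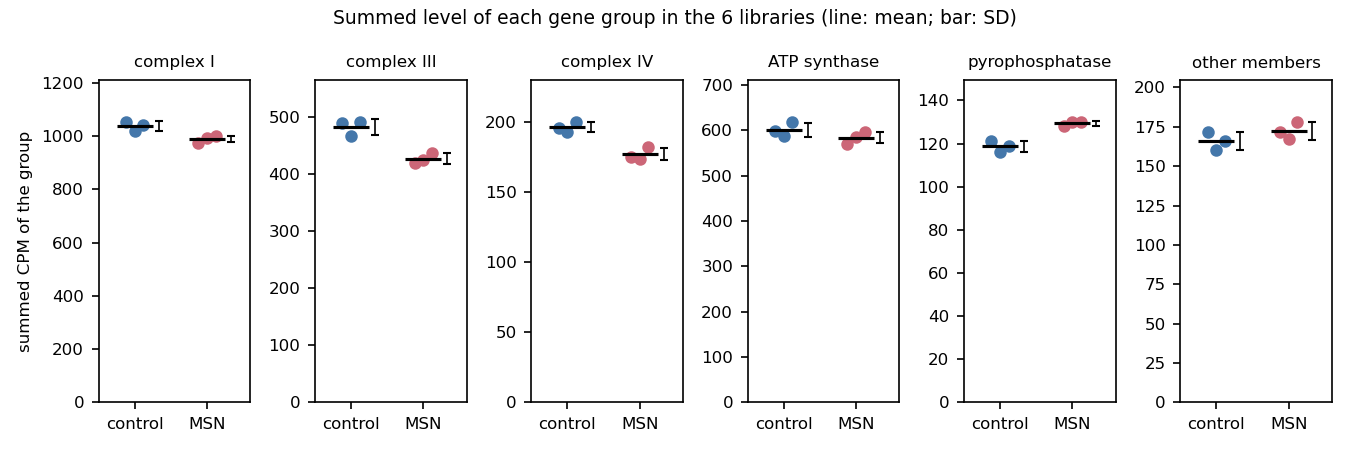
Summed CPM of each gene group (y axis, from 0) in the 3 control libraries (blue) and the 3 MSN libraries (red), with the mean as a line and the SD as a bar. Complex III sums are 468 to 492 CPM in control and 421 to 438 CPM in MSN, whereas the pyrophosphatase sums are higher in MSN.

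Complex I is the entry point for electrons from NADH. Of its 27 genes, 6 were lower, 2 were higher and 19 did not pass. The median log2 fold change was -0.01 and the range -0.41 to 0.73. The share lower was 22.2%, below the 29.7% of all tested genes and the 40.5% of those of at least 10 CPM. The largest falls were in both copies, among the 69 genes, of the subunit with KEGG orthology K03940. It is annotated with quinone and iron-sulfur cluster binding and holds the last cluster before ubiquinone. A further gene with K03940, GLYMA_14G093300, had 34 counts in all and fell under the count limit. GLYMA_06G051400 (chromosome 6, 3884996 to 3887519) was at 87.2, 80.4 and 84.5 CPM in control and at 57.7, 66 and 66.7 CPM in MSN. Its log2 fold change was -0.41 (SE 0.05, adjusted p = 3.17e-06). GLYMA_04G050600 (chromosome 4, 4111460 to 4114237) was at 53.8, 50.8 and 52.7 CPM in control and at 40, 45.4 and 38.8 CPM in MSN, a change of -0.34 (SE 0.06, adjusted p = 5.19e-05). All MSN libraries lay below all control libraries in both copies.

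Genes for other subunits on the same electron path gave mixed calls. The copies of the large iron-sulfur subunit (K03934), where electrons pass along the matrix arm, did not pass: GLYMA_18G041700, the complex I gene of highest CPM, was at 96.9, 95.1 and 92.1 CPM in control and at 94, 93.2 and 94.8 CPM in MSN (log2 fold change -0.01, SE 0.04, adjusted p = 0.821), and GLYMA_11G214800 changed by -0.07 (adjusted p = 0.226). The NADH- and FMN-binding subunit (K03942), where NADH is oxidised, has a pair of genes. GLYMA_10G005500 fell from 59.7 ± 1.42 to 50.4 ± 1.8 CPM (SD over 3 libraries), a log2 fold change of -0.24 (adjusted p = 0.000185). GLYMA_02G003300 was at 91.7, 90.9 and 90.1 CPM in control and at 81.5, 84.8 and 88.3 CPM in MSN, with no overlap, and missed the threshold (log2 fold change -0.10, SE 0.04, adjusted p = 0.0516). It passed with DESeq2 (adjusted p = 0.0323), with DESeq2-type size factors (adjusted p = 0.0473), with library totals (adjusted p = 0.0467) and without MSN replicate 3 (adjusted p = 0.0217), and in none of the other alternatives, where the values reached 1. GLYMA_15G006400, another subunit of the same NADH-binding module (K03943), was at 46.7 ± 2.82 and 47.9 ± 2.44 CPM and did not pass.

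The genes higher in MSN were GLYMA_05G106100 and GLYMA_13G241500. GLYMA_05G106100, annotated with NADH dehydrogenase activity (chromosome 5, 28170704 to 28175400), was at 22.6, 19 and 19.3 CPM in control and at 26.8, 24.6 and 27.4 CPM in MSN (log2 fold change 0.37, SE 0.07, adjusted p = 0.000268). GLYMA_13G241500, a further iron-sulfur subunit (K03941; chromosome 13, 35148816 to 35152426), was at 58.3, 55.3 and 57.6 CPM in control and at 65.8, 61.1 and 63.8 CPM in MSN (log2 fold change 0.16, SE 0.05, adjusted p = 0.00707). Control and MSN libraries did not overlap in either gene. GLYMA_13G127400, the one complex I gene whose terms include response to salt stress, fell from 72.1 ± 2.07 to 62.1 ± 2.78 CPM (log2 fold change -0.22, adjusted p = 0.000566; named after its values were seen).

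One gene of this group goes against the mitochondrial label. GLYMA_13G068600 (ndhC, chromosome 13, 16858723 to 16859438) is described in the table as subunit 3 of the chloroplast NAD(P)H-quinone oxidoreductase, which works in the thylakoid and not in the mitochondrion, although a mitochondrial membrane term stands among its terms too. It has the lowest sum of the 69 genes, 264 counts, whereas the nearest gene under the limit of 60, GLYMA_13G351900, has 49. Its libraries held 23, 40 and 37 counts in control and 56, 61 and 47 in MSN. The log2 fold change was 0.73 (SE 0.37), the highest of the group, and did not pass (adjusted p = 0.0955). The gene passed in limma on log2(FPKM + 1), with a change of 0.34 on that scale (adjusted p = 0.0106). In limma on log2(FPKM + 0.1) it also passed, with a change of 0.70 (adjusted p = 0.0188). Adjusted p over the alternatives ranged from 0.0106 to 0.391.

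**Figure D3:**
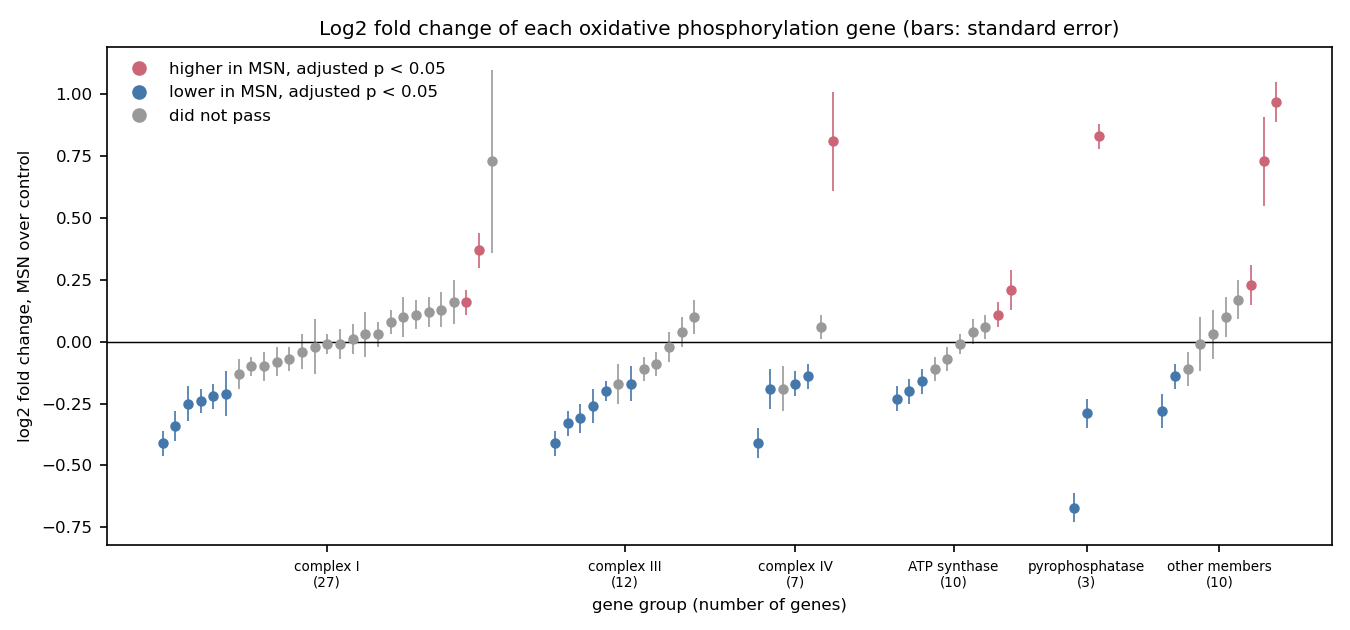
Log2 fold change of each of the 69 genes, MSN over control (y axis), sorted within each gene group (x axis), with bars for 1 standard error. Blue points are lower and red points higher at the adjusted p threshold of 0.05, and grey points did not pass; complex III has blue and grey points only.

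Complex III takes electrons from ubiquinol to cytochrome c. Of its 12 genes, 6 were lower, 0 were higher and 6 did not pass. The share lower was 50%, beside 29.7% of all tested genes and 40.5% of those of at least 10 CPM, a level that all 12 genes reach, and the median log2 fold change was -0.17. DESeq2 also called 6 lower and 0 higher, and at an unadjusted p under 0.05 the edgeR test had 0 higher. The largest falls were in genes for the Rieske iron-sulfur protein (K00411), the subunit that accepts the first electron from ubiquinol. GLYMA_16G147600 (chromosome 16, 30845527 to 30848085) was at 65.4, 57 and 62.1 CPM in control and at 44.9, 47.4 and 46 CPM in MSN, a log2 fold change of -0.41 (SE 0.05, adjusted p = 1.8e-06). GLYMA_02G066500 (chromosome 2, 5903451 to 5906599) was at 54.5, 52.4 and 50.2 CPM in control and at 42.2, 41.9 and 40.7 CPM in MSN, a change of -0.33 (SE 0.05, adjusted p = 1.06e-05). The MSN libraries lay below the control libraries in both.

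The third Rieske gene did not pass. GLYMA_02G066400 lies 2189 bases upstream of GLYMA_02G066500 on the same strand and was at 33.7, 28.6 and 30.3 CPM in control and at 30.4, 31.2 and 33.4 CPM in MSN. These values overlapped, and the log2 fold change was 0.04 (SE 0.06, adjusted p = 0.652). The log2 ratio of this gene to its neighbour was -0.69, -0.87 and -0.73 in control and -0.47, -0.42 and -0.29 in MSN, so the ratio was higher in every MSN library. The pair was chosen after its values were seen, and how reads shared between close copies were counted is not given, so the split of reads between them is uncertain.

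Among the other complex III genes, GLYMA_16G062100, annotated with heme binding and electron transfer (chromosome 16, 6057036 to 6061693), was at 66.6, 63.7 and 68.4 CPM in control and at 57.9, 56.8 and 59 CPM in MSN (log2 fold change -0.20, SE 0.04, adjusted p = 0.00103). Its copy with the same terms, GLYMA_19G084900, was at 26.4 ± 1.33 and 28.4 ± 2.71 CPM and did not pass (log2 fold change 0.10, adjusted p = 0.206). GLYMA_17G208000, annotated to complex III and its assembly, was at 67.1, 63.8 and 64.4 CPM in control and at 60.5, 57.9 and 63.1 CPM in MSN. These groups did not overlap, yet the change of -0.11 missed the threshold (SE 0.05, adjusted p = 0.0567) and passed with DESeq2 (adjusted p = 0.0464) and without MSN replicate 3 (adjusted p = 0.0251), and in none of the other alternatives, where the values reached 1.

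Complex IV, cytochrome c oxidase, reduces oxygen to water. Of its 7 genes, 4 were lower (57.1%), 1 was higher (14.3%) and 2 did not pass, beside 29.7% lower and 29.6% higher of all tested genes and 40.5% lower of those of at least 10 CPM. Their median log2 fold change was -0.17. The count of lower genes was 1 in limma on quantile-normalised values and 2 without control replicate 1. GLYMA_17G157000 (chromosome 17, 13369210 to 13371028), annotated with cytochrome-c oxidase and enzyme regulator activity, was at 41.2, 39.2 and 44.6 CPM in control and at 30.3, 30.2 and 33.2 CPM in MSN. All MSN libraries were below all control libraries, with a log2 fold change of -0.41 (SE 0.06, adjusted p = 8.4e-06). Its copy with the same terms, GLYMA_05G110100 (chromosome 5, 29185309 to 29188430), was at 41.3, 41.6 and 40.7 CPM in control and at 37.6, 35.5 and 39 CPM in MSN (log2 fold change -0.14, SE 0.05, adjusted p = 0.0249). That smaller change lost its call in limma on quantile-normalised values (adjusted p = 0.148) and without control replicate 1, control replicate 2 or MSN replicate 2 (adjusted p = 0.0533, 0.0629 and 0.099).

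GLYMA_13G090900, annotated to respiratory chain complex IV, was at 15.1, 14.8 and 16.2 CPM in control and at 13.8, 13.9 and 12.6 CPM in MSN, a log2 fold change of -0.19 (SE 0.08, adjusted p = 0.0438). It did not pass with DESeq2 (adjusted p = 0.0532), with the replicate number as a block (0.0619), with no low count filter (0.0534), with the 1 CPM filter (0.0545) or in limma on quantile-normalised values (0.054), nor without control replicate 1, control replicate 3, MSN replicate 1 or MSN replicate 3 (adjusted p = 0.0673, 0.165, 0.0597 and 0.156). GLYMA_08G209700, the complex IV gene with the highest CPM, was at 44.9 ± 1.89 and 46.8 ± 1.38 CPM and did not pass (adjusted p = 0.319). The rise was in the gene with the lowest FPKM of the group. GLYMA_12G155300 (chromosome 12, 24277539 to 24279376), annotated with cytochrome-c oxidase activity and active transport across the membrane, was at 1.31, 1.86 and 1.47 CPM in control and at 2.5, 2.64 and 3.01 CPM in MSN (log2 fold change 0.81, SE 0.20, adjusted p = 0.00184). Its libraries did not overlap, and at 843 counts in all its precision is lower than that of the other genes of the complex.

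Among the genes kept here, ATP synthase had the smallest change in summed level of the 4 complexes, -2.86%. Of its 10 genes, 3 were lower (30%), 2 were higher (20%) and 5 did not pass. The share lower was near the 29.7% of all tested genes but below the 40.5% of those of at least 10 CPM, a level that all 10 genes reach. The share higher was below the 29.6% of all tested genes and the 31.4% of those of at least 10 CPM. The median log2 fold change of the 10 genes was -0.04 and the range -0.23 to 0.21. GLYMA_20G177700, annotated to the stator stalk and the membrane sector that carries the protons (chromosome 20, 41518436 to 41522203), had the highest level per gene length of the 69 genes, 94.5 FPKM on average. It was at 83.7, 86.4 and 91.2 CPM in control and at 88.6, 97.7 and 96 CPM in MSN. The groups overlapped, and the log2 fold change of 0.11 passed narrowly (SE 0.05, adjusted p = 0.0487). It did not pass with DESeq2-type size factors (adjusted p = 0.0575), with no low count filter (0.0827) or in limma on FPKM (0.0513 and 0.0507), nor without control replicate 1, control replicate 2, MSN replicate 2 or MSN replicate 3 (adjusted p = 0.186, 0.0961, 0.217 and 0.165). The other higher gene, GLYMA_07G003700, also overlapped between groups, at 13.1 ± 1.1 and 15.2 ± 1.01 CPM (SD over 3 libraries; log2 fold change 0.21, adjusted p = 0.0371). It did not pass with no low count filter (adjusted p = 0.0609), with the replicate block (0.0513) or without control replicate 1, control replicate 2, MSN replicate 1 or MSN replicate 2 (adjusted p = 0.169, 0.0743, 0.174 and 0.0948). GLYMA_06G203200, of the catalytic head where ATP is made, was at 119, 110 and 118 CPM in control and at 115, 111 and 119 CPM in MSN, with no change detected (log2 fold change -0.01, SE 0.04, adjusted p = 0.852).

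The 3 lower genes of ATP synthase are annotated to its catalytic head. GLYMA_03G105300 (chromosome 3, 30170661 to 30174174) was at 62, 59 and 61.7 CPM in control and at 49.5, 54.2 and 52.2 CPM in MSN, a log2 fold change of -0.23 (SE 0.05, adjusted p = 0.000423). GLYMA_07G117000, which has the same terms, fell from 52.7 ± 0.897 to 47.1 ± 1.57 CPM (log2 fold change -0.16, adjusted p = 0.00601). GLYMA_04G162800 (chromosome 4, 40387251 to 40393343) was at 63.6, 61 and 66.8 CPM in control and at 53.6, 56.6 and 56.4 CPM in MSN, a change of -0.20 (SE 0.05, adjusted p = 0.00132), whereas GLYMA_06G203200, with the same terms, did not pass. GLYMA_04G162800 overlaps a gene on the opposite strand by 314 bases. That gene averaged 0.199 CPM, and without a stated strand setting the reads of both cannot be told apart. The same limit holds for GLYMA_03G195700 of complex III (overlap of 2459 bases, other gene at 4.44 CPM). It also holds for GLYMA_11G011200 of complex I (1263 bases, 7.27 CPM) and GLYMA_14G126300 of complex III (589 bases, 1.02 CPM). None of these further genes passed. The group is not the whole enzyme: 2 further genes with mitochondrial ATP synthase terms carry the rotary pump term and were dropped, and both were lower in MSN. Outside the 69 genes, GLYMA_10G267200, annotated to the catalytic head, fell from 219 ± 11.7 to 187 ± 3.3 CPM (log2 fold change -0.23, adjusted p = 8.15e-05). That level is above any of the 10 genes, so the -2.86% holds only for the genes kept.

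The pyrophosphatases rose and fell within 1 small group, from -0.67 to 0.83 on the log2 scale. These soluble enzymes split the pyrophosphate that biosynthetic reactions release, and KEGG files them with oxidative phosphorylation although they are not part of the respiratory chain. GLYMA_13G253600 (chromosome 13, 35972675 to 35975896), whose terms include chloroplast stroma, thylakoid and response to salt stress beside the cytosol, was at 45.9, 40.9 and 39.1 CPM in control and at 74.9, 74.8 and 73.6 CPM in MSN. Its log2 fold change of 0.83 (SE 0.05, adjusted p = 1.91e-10) is a 1.77-fold rise. GLYMA_11G070800 (chromosome 11, 5288501 to 5292009), annotated to the cytosol and to no plastid compartment, was at 38.9, 39 and 41.2 CPM in control and at 24.4, 23.7 and 27 CPM in MSN, a log2 fold change of -0.67 (SE 0.06, adjusted p = 1.78e-08) and the largest fall among the 69 genes. GLYMA_19G173600 (chromosome 19, 43396585 to 43400503), with the same terms, was at 35.9, 35.9 and 39.1 CPM in control and at 29, 31.7 and 29.8 CPM in MSN (log2 fold change -0.29, SE 0.06, adjusted p = 0.000249).

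None of the 3 pyrophosphatase genes had overlapping groups, which also held for 65.0% of all tested genes. The log2 ratio of GLYMA_13G253600 to GLYMA_11G070800 was 0.24, 0.07 and -0.08 in the control libraries and 1.62, 1.66 and 1.45 in the MSN libraries. The gene with plastid terms rose in the same libraries in which the photosystem genes rose, and the part of that shift in its rise was not tested. Of the 69 genes, 4 carry a plastid term. Of these, GLYMA_13G253600 was higher, GLYMA_20G243400 was lower, and GLYMA_09G129000 and GLYMA_13G068600 did not pass.

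Among the other 10 genes, 3 were higher (30%), 2 were lower (20%) and 5 did not pass. Of all tested genes 29.6% were higher and 29.7% lower, so the share higher was near that of all tested genes. The higher genes were all acyl carrier proteins, which hold growing fatty acids in mitochondria and, as known from other eukaryotes, are also bound to complex I. GLYMA_15G118700 (chromosome 15, 9311086 to 9313274) was at 10.8, 10.2 and 9.66 CPM in control and at 20.4, 18 and 21.5 CPM in MSN, a log2 fold change of 0.97 (SE 0.08, adjusted p = 1.27e-08), a 1.95-fold rise and the largest of the 69 genes. GLYMA_09G014000 (chromosome 9, 1048663 to 1050790) was at 2.23, 2.13 and 1.61 CPM in control and at 3.07, 3.08 and 3.8 CPM in MSN (log2 fold change 0.73, SE 0.18, adjusted p = 0.00217). GLYMA_09G247100, with the same terms, went from 13.9 ± 0.601 to 16.3 ± 1.19 CPM (log2 fold change 0.23, adjusted p = 0.0164), and the MSN libraries lay above the control libraries in these 3 genes. The call of GLYMA_09G247100 was lost without control replicate 2, control replicate 3, MSN replicate 1 or MSN replicate 2 (adjusted p = 0.0534, 0.059, 0.0869 and 0.0652). The copy GLYMA_18G245900 was at 16.1 ± 1.24 and 18.1 ± 0.737 CPM and did not pass (adjusted p = 0.067).

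The acyl carrier gene with the highest FPKM went the other way. GLYMA_18G244300 (chromosome 18, 53208864 to 53210903) was at 29.6, 30 and 29 CPM in control and at 26.6, 26.7 and 27.3 CPM in MSN, with a log2 fold change of -0.14 (SE 0.05, adjusted p = 0.0391). That call was lost in limma on quantile-normalised values (adjusted p = 0.155), with the 1 CPM filter (adjusted p = 0.0625), with the replicate number as a block (adjusted p = 0.0612) and without control replicate 1, control replicate 2, MSN replicate 1 or MSN replicate 2 (adjusted p = 0.0769, 0.108, 0.0755 and 0.0708).

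**Figure D4:**
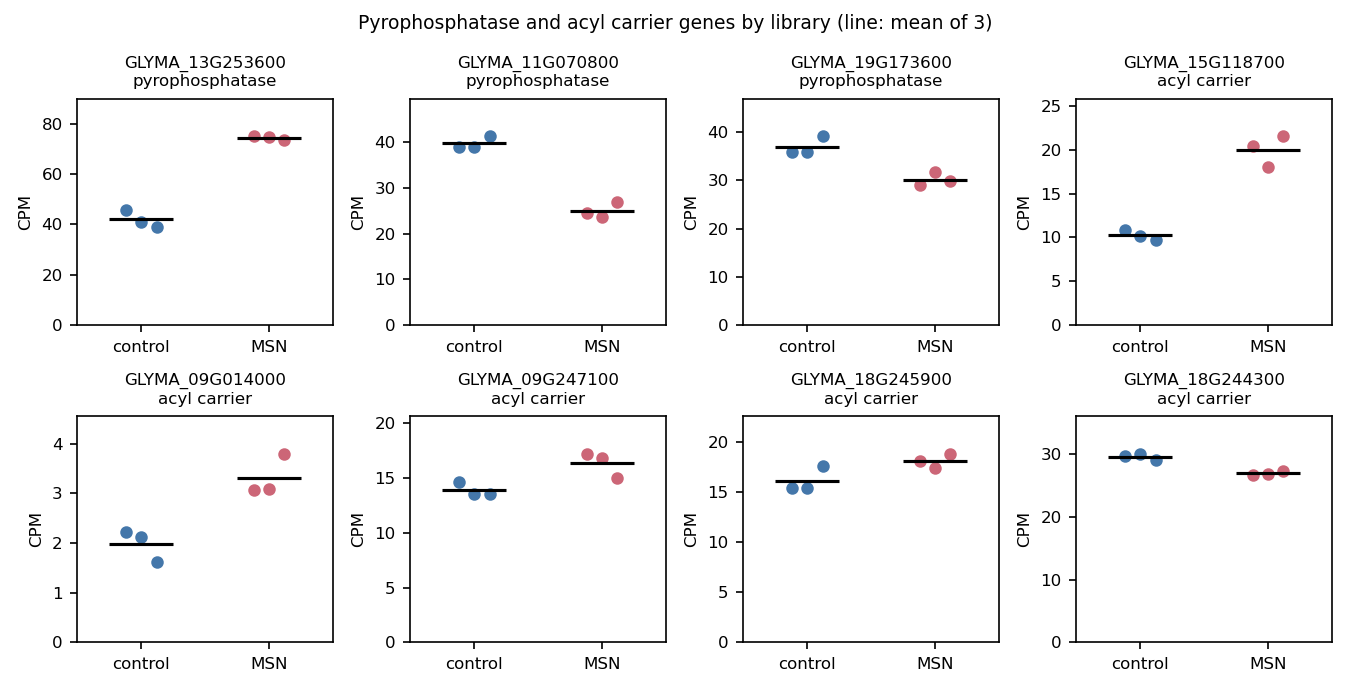
CPM (y axes, each from 0) of the 3 pyrophosphatase and 5 acyl carrier genes in each control library (blue) and MSN library (red), with the group mean as a line. GLYMA_13G253600 and GLYMA_15G118700 are higher in every MSN library, GLYMA_11G070800 and GLYMA_19G173600 are lower in every one, and GLYMA_18G245900 overlaps.

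The remaining genes supply the cofactors of complex IV. GLYMA_20G243400, described as the mitochondrial protoheme IX farnesyltransferase (K02257; chromosome 20, 47383712 to 47388200), which makes the heme precursor of cytochrome c oxidase, was at 39.2, 33.8 and 35.2 CPM in control and at 30.3, 27.3 and 31.5 CPM in MSN. It was lower in every MSN library (log2 fold change -0.28, SE 0.07, adjusted p = 0.00144). The pair annotated to heme A synthesis did not pass. GLYMA_14G010400 was at 16.6 ± 1.73 and 17.8 ± 1.25 CPM and GLYMA_02G303400 at 11.3 ± 1.01 and 11.6 ± 1.25 CPM. Nor did the copper genes, with GLYMA_18G043100 at 21.5 ± 1.31 and 19.9 ± 0.792 CPM and the copper chaperone gene GLYMA_06G242800 at 8.65 ± 0.981 and 8.6 ± 0.288 CPM.

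Soybean carries many of its genes in duplicate. Among the 69 genes, 46 fell into 21 sets whose GO and KEGG orthology terms were identical, and no set lay on a single chromosome. In 5 sets all copies were lower, in 8 none passed, and in 8 some copies passed and others did not. No set (0 of 21) held both a higher and a lower copy. Only the acyl carrier set and the set of GLYMA_20G177700 held any higher copy, so the other sets could not have held both. Genes with unlike GO terms were not set side by side. The pyrophosphatases GLYMA_13G253600 (log2 fold change 0.83) and GLYMA_11G070800 (-0.67) share K01507 but lay in no common set. The lower acyl carrier gene GLYMA_18G244300 was not in the acyl carrier set. Identical terms do not prove that the genes encode the same subunit, and a copy that passed beside one that did not is not shown to differ from it. The widest differences between copies within a set were 0.80 on the log2 scale in the acyl carriers and 0.45 between the Rieske genes GLYMA_02G066400 and GLYMA_16G147600.

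**Figure D5:**
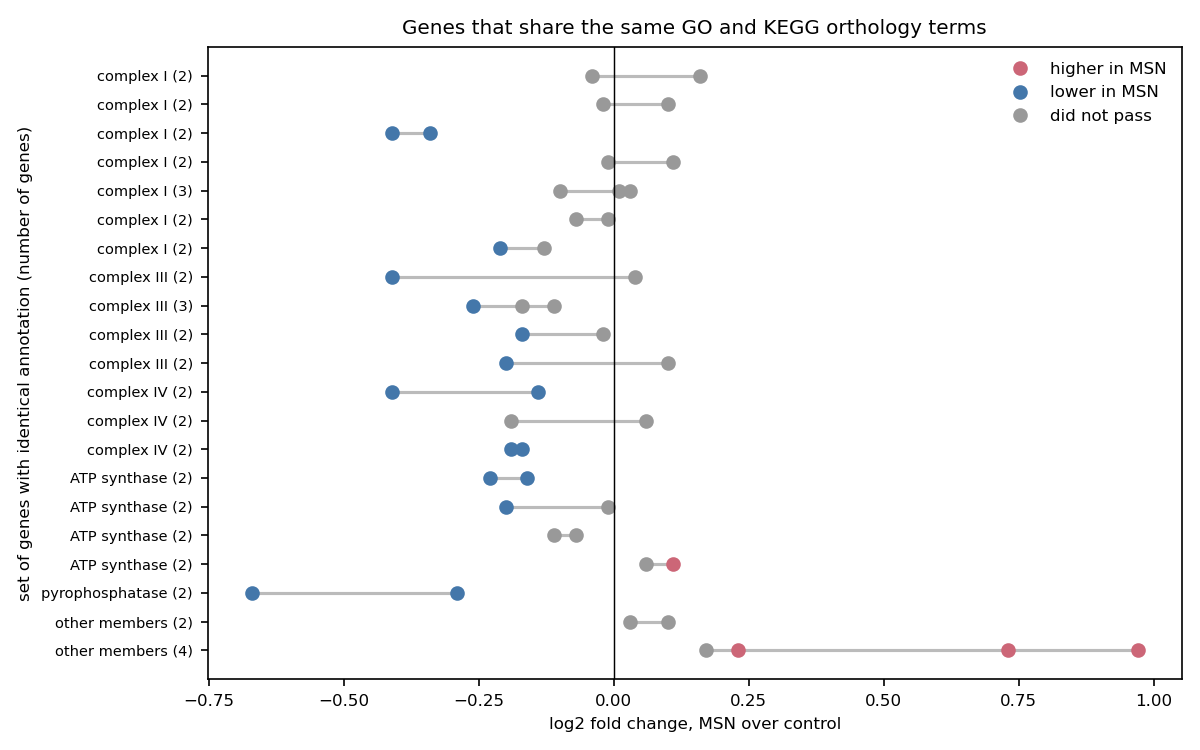
Log2 fold change (x axis, MSN over control) of the genes in each of the 21 sets with identical annotation (y axis, with the number of genes), joined by a grey line. Blue points were lower, red points higher and grey points did not pass; no line joins a blue point to a red one.

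Other mitochondrial genes were described from GO lists, without the 69 genes. The alternative oxidase list had 6 tested genes, of which 4 were lower (66.7%) and 1 was higher (16.7%), beside 29.7% and 29.6% of all tested genes. The median log2 fold change of the list was -0.47. GLYMA_08G072300 was at 79.1, 78.9 and 79.7 CPM in control and at 101, 94.6 and 95.2 CPM in MSN (log2 fold change 0.29, SE 0.04, adjusted p = 7.47e-06). Its neighbour GLYMA_08G072200 was at 81.1, 69 and 78.6 CPM in control and at 65.8, 70.8 and 74.4 CPM in MSN, which overlapped (adjusted p = 0.0951). Of the others, GLYMA_04G123800 fell from 31.3 ± 0.54 to 15 ± 3.15 CPM (log2 fold change -1.07, adjusted p = 3.1e-08; named after its values were seen), a larger change than any in the 69 genes. GLYMA_09G008500 and GLYMA_15G112900, which carry plastid terms, fell by 0.57 and by 0.66 on the log2 scale, and GLYMA_05G117200 by 0.37. Plants have a plastid enzyme related to the alternative oxidase, and this GO term does not separate the 2 kinds.

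The ATP:ADP antiporters, which exchange ATP for ADP across organelle membranes, had 8 of 16 tested genes lower (50%) and 2 higher (12.5%). Without genes that carry a plastid term, 7 of 11 were lower and 0 higher. Of all tested genes 29.7% were lower and 29.6% higher, and of those of at least 10 CPM 40.5% were lower and 31.4% higher. GLYMA_15G273600 fell from 309 ± 12.6 to 208 ± 3.09 CPM (log2 fold change -0.57, adjusted p = 1.38e-10), and GLYMA_07G033100, which carries chloroplast membrane terms, fell from 352 ± 13.4 to 315 ± 9.72 CPM (log2 fold change -0.16, adjusted p = 0.000811). Mitochondrial protein import had 21 of 48 lower (43.8%) and 4 higher (8.33%). Its genes of highest CPM, GLYMA_03G005900 and GLYMA_19G120100, rose by 0.65 and 0.62 on the log2 scale, but these carry plastid terms. Of the 45 tested import genes without one, 21 were lower and 1 was higher. Respiratory chain assembly had 9 of 49 lower (18.4%) and 13 higher (26.5%), both below the shares of all tested genes.

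Among the lists for expressing the mitochondrial genome, more genes were higher than lower, beside 29.6% higher and 29.7% lower of all tested genes. Mitochondrial ribosome genes had 18 of 66 higher and 6 lower, and 14 of 56 higher and 6 lower without genes that carry a plastid term. The share higher in the whole list, 27.3%, is below the 29.6% of all tested genes. Its gene of highest CPM, GLYMA_13G177900, went from 135 ± 5.12 to 270 ± 12.9 CPM (log2 fold change 1.00, adjusted p = 2.98e-13). The next, GLYMA_10G002600, which carries chloroplast stroma terms, went from 122 ± 6.35 to 180 ± 2.74 CPM (log2 fold change 0.56, adjusted p = 9.39e-10). Mitochondrial RNA processing had 11 of 30 higher and 5 lower. Mitochondrial matrix genes had 53 of 116 higher (45.7%) and 25 lower (21.6%). Of these, 17 higher and 0 lower were among the 19 genes with a plastid term. Inner membrane genes had 46 of 188 higher (24.5%) and 59 lower (31.4%). For comparison with pathways on either side, KEGG citrate cycle genes had 52 of 72 lower and 11 higher (median log2 fold change -0.26), and KEGG photosynthesis genes 7 of 71 lower and 61 higher (median 0.64). The differences between these lists were not tested.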

How the data were processed

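RNA from 3 control and 3 MSN leaf libraries was enriched for messenger RNA with oligo(dT) beads, per the labels' protocols. The table holds a whole-number count per gene and library, which the authors deposited without normalisation, and an FPKM value, which the authors scaled by gene length and library total, per the file headers. The submitters' processing notes name DESeq2 1.34.0 and R 4.1.2 without their role. Which aligner, counter, strand setting, build and annotation were used is not given, and coordinates are as deposited. No member identifier (0 of 69) was found in the reference gene table, and no sequences were used here. Of the 69 genes, 67 have no description beyond "hypothetical protein", so GO and KEGG orthology terms give their roles.

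The main test on counts was the quasi-likelihood test of edgeR (4.0.16, in R 4.3.3; TMM, filterByExpr, glmQLFit and glmQLFTest, 2-sided, Benjamini-Hochberg adjustment over 39203 genes). CPM values are TMM-scaled, with factors from 0.992 to 1.01. SE was derived from the F statistic. The fit was tested on simulated data. The members and lists were chosen with earlier results of these data known. Named genes were, per group, the 2 of highest mean CPM and the 2 largest rises and falls among called genes without overlap between the groups. The gene just above the count limit was added, and for some of the outside lists up to 2 genes of highest CPM. Any further gene was picked with its values known. Alternatives were DESeq2 1.42.0, limma 3.58.1 on FPKM, other scalings, filters and member rules, a block for replicate number and leaving out each library. Quantile normalisation and the background at 10 CPM were added after seeing the data. The labels give 1 batch value for all libraries.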

Additional observations from a re-analysis of the deposited data

How the results depend on the processing

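No called gene among the 69 changed direction under any alternative run. Of the counts recomputed, 253 stayed within 1.5 times and 41 did not. Testing against a log2 fold change of 0.5 left 4983 genes higher and 3936 lower in the table. In the pathway it left 2 higher and 1 lower. Complex I, complex IV and ATP synthase had 0 and 0, and complex III had 0 lower. The pyrophosphatases had 1 higher and 1 lower, and the other 10 genes had 1 higher and 0 lower. Mitochondrial genes outside the pathway had 36 higher and 23 lower. In limma on quantile-normalised values 14 pathway genes were higher, 6 of them in complex I, and complex IV and the other 10 genes had 1 lower each. On FPKM, complex I had 5 higher and ATP synthase 1 higher with either pseudocount. ATP synthase had 1 higher with DESeq2-type size factors and 0 with no low count filter, and the other 10 genes 1 lower with the 1 CPM filter. Keeping all 147 pathway genes gave 22 higher and 51 lower. Leaving out 1 library gave 0 to 2 higher ATP synthase genes (0 without control replicate 1, control replicate 2 or MSN replicate 2), 2 to 4 lower complex IV genes, 1 to 2 lower among the other 10, and 6 to 9 higher and 19 to 24 lower pathway genes. GLYMA_18G041700, not called, ranged from -0.03 to 0.00 over left-out libraries and changed sign at 0.00 with the 1 CPM filter and without control replicate 1 and at 0.04 with quantile normalisation; GLYMA_06G203200, not called, did so at 0.00 with that filter and at 0.05 with quantile normalisation, and ranged from -0.05 to 0.01 over left-out libraries. Replicate numbers did not pair the libraries (correlations of same-numbered deviations -0.003, 0.01 and 0.002); with the replicate block 8 pathway genes were higher and 20 lower, complex IV had 3 lower (GLYMA_13G090900 no longer passed, adjusted p = 0.0619), ATP synthase had 1 higher and the other 10 genes 1 lower. The cause of these differences was not tested. Depth limits the genes under about 3 CPM most.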
